A study of Mus musculus with 12 samples.

Results

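Muscle of mice given adenovirus coding for a short hairpin RNA (shRNA) against lipocalin 13 (LCN13) was compared with muscle of mice given control shRNA virus alone, on 3 arrays each, which are 6 of the 12 arrays of the series. The arrays were chosen by their titles, and the genes of both interferon lists described below were set apart so that the rest of the response could be seen. A shRNA directs the degradation of the transcript it matches. The series asks, by its title, about TSC22D4 in diabetic high blood sugar and insulin resistance.

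All mice were 12-week-old animals of a stock on the BKS background that carries the leptin receptor mutation db. Mice with a pair of db alleles become obese and diabetic, and the labels do not say which alleles each animal had. Control mice received 4e+09 plaque-forming units of control shRNA virus. LCN13 shRNA mice received 2e+09 units of LCN13 virus and 2e+09 of control virus, TSC22D4 shRNA mice 2e+09 of TSC22D4 virus and 2e+09 of control virus, and TSC22D4+LCN13 shRNA mice 2e+09 of each target virus with no control virus. Every group thus carried adenovirus at 1 total dose, and there was no group without virus. In LCN13 shRNA against control, less control virus and the addition of LCN13 virus cannot be told apart. The gastrocnemius, the large calf muscle, was taken 1 week after injection. Of 7 mice per group 3 called representative were put on arrays, and how the other 4 varied is not seen here. Animals 18, 19 and 20 were controls. Those given LCN13 virus alone were 21, 22 and 23, those given TSC22D4 virus alone 25, 26 and 27, and those given both 29, 30 and 32.

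LCN13 is a small secreted protein of the lipocalin family, whose members carry fatty acids, retinoids and other hydrophobic molecules in a barrel-shaped pocket. In mice it circulates and has been linked to insulin sensitivity and to lower glucose output by liver. Skeletal muscle takes up most of the glucose cleared after a meal through the transporter GLUT4, burns fatty acids at rest, and gives up its protein through the ubiquitin and proteasome system and through autophagy when glucocorticoids are high or insulin action is low. These are the systems by which the genes below are grouped.

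The targeted transcript was examined on every array. Obp2a, the current symbol of Lcn13, measured 4.91, 4.96 and 4.91 on the log2 scale in control animals and 4.93, 4.90 and 4.93 in LCN13 animals, and the groups overlapped. The lowest value of any probe set was 4.78 and the median of all values 5.45, so Obp2a was near the floor of the arrays and its knockdown was not detectable in muscle. Tsc22d4 measured 6.54, 6.43 and 6.79 in control and 6.81, 7.00 and 6.62 in LCN13 animals, and did not pass (0.22, SE 0.121, adjusted p = 0.512 in limma). The differences below are therefore described as differences between groups named by the virus given. They are not shown to come from loss of LCN13 in muscle, and the labels do not state whether the virus reached muscle.

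The tissue matched its label. Over 16 myofibre genes the mean log2 level was 13.68 to 13.71 in control and 13.68 to 13.69 in LCN13 arrays, and Acta1, skeletal actin, lay at 14.05, 14.01 and 14.09 against 13.97, 14.09 and 14.09. Transcripts of tendon and of liver differed between arrays. A tendon score, the mean deviation of 6 tendon genes from their 12-array means, was -0.948, 0.106 and -1.063 in control animals 18, 19 and 20 and 0.438, 0.136 and 0.305 in LCN13 animals. Both outer controls lay far below every LCN13 array, whereas control 19 lay close to them. A hepatocyte score of 10 genes was -0.437, 0.089 and -0.022 in control and -0.111, 1.220 and 0.520 in LCN13 animals, high in animals 22 and 23. In bulk tissue fewer cells of a type and less RNA per cell cannot be told apart.

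Of 23185 genes tested, 197 passed an adjusted p of 0.05 in limma (0.85%), 55 of them higher (0.237%) and 142 lower (0.612%) with LCN13 shRNA. Genes of the interferon response made up 70 of these, all lower, of 241 measured members of both interferon lists. Over the narrower list of 46 genes the mean log2 level was 7.18 to 7.46 in control and 6.36 to 6.44 in LCN13 arrays. It was as low with TSC22D4 shRNA (6.35 to 6.4) and with TSC22D4+LCN13 shRNA (6.27 to 6.42). This fall was therefore not particular to LCN13 virus. Herc6, the mouse ligase for the ubiquitin-like protein ISG15, measured 8.60, 8.42 and 8.73 in control and 6.77, 6.87 and 6.90 in LCN13 animals, a log2 change of -1.74 (SE 0.074, adjusted p = 1.65e-05), and its groups did not overlap. The remaining 127 genes, 72 lower and 55 higher, are the subject of what follows. Their changes were small, with a median absolute log2 difference of 0.36 against 0.93 for the interferon genes, and 1 fell and 1 rose by over 2-fold, the predicted gene Gm20559 (-1.14), grouped below with genes linked to interferon, and the small nucleolar RNA AF357425 (1.54), both outside the naming rule and given here for their size. In all 127 the LCN13 arrays lay wholly above or wholly below the control arrays, a pattern that 9.74% of all genes showed upwards and 9.02% downwards. The plot of all genes shows how the 2 kinds of gene were placed.

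**Figure D1:**
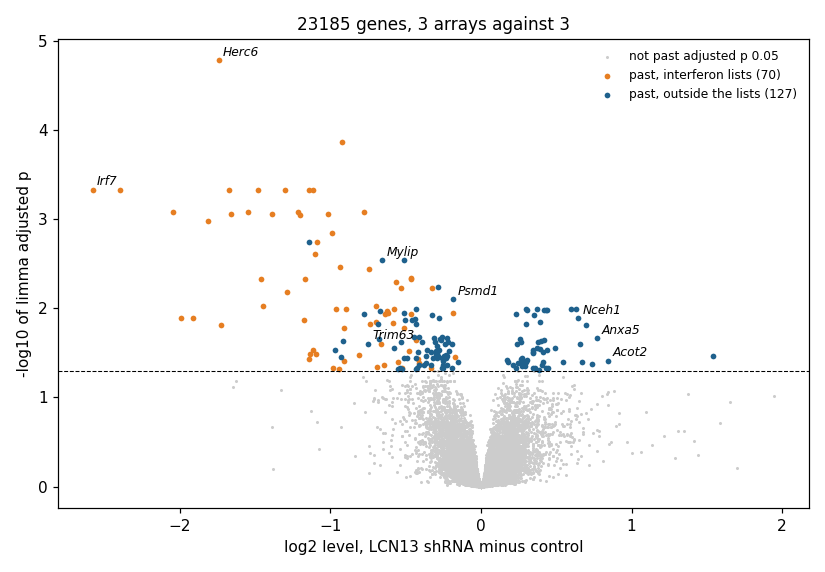
Log2 difference of group means (LCN13 shRNA minus control, 3 arrays each) against -log10 of the limma adjusted p for 23185 genes, with the dashed line at an adjusted p of 0.05. The 70 genes of the interferon lists past the line (orange) are all to the left and reach Irf7 at -2.58, and the 127 others (blue) lie on both sides and nearer to 0.

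The falls outside the interferon lists included genes of the ubiquitin system, glucocorticoid-induced genes and enzymes of amino acid and pyruvate metabolism. Trim63, which fell 1.68-fold, encodes MuRF1, the muscle ubiquitin ligase that marks myosin and other thick-filament proteins for breakdown. It measured 11.08, 10.75 and 10.71 in control and 9.87, 10.25 and 10.18 in LCN13 animals (log2 difference -0.75, SE 0.12, adjusted p = 0.0251), with animal 21 lowest and no overlap. In the other groups it was 10.83, 10.61 and 10.59 with TSC22D4 shRNA and 10.71, 10.76 and 10.69 with TSC22D4+LCN13 shRNA, and both groups lay above all 3 LCN13 arrays. The interaction for Trim63 was 0.79 and did not pass (adjusted p = 0.145). Of 35 measured genes of muscle atrophy and FoxO targets, Trim63 was the only one past the threshold, with a list median of -0.06 against 0.001 for all genes. Fbxo31, the substrate receptor of another ligase, did not overlap between the groups either but missed the threshold (log2 difference -0.51, adjusted p = 0.0752).

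Klf15, a transcription factor that glucocorticoids induce and that turns on amino acid breakdown in muscle, fell 1.60-fold. Its log2 levels were 7.61, 7.65 and 7.67 in control and 6.70, 7.13 and 7.06 in LCN13 animals (difference -0.68, SE 0.104, adjusted p = 0.022). The 3 controls were almost equal, and animal 21 was the lowest of all 12 arrays. Cebpd, a further glucocorticoid-induced transcription factor, measured 6.16, 5.84 and 5.71 against 5.33, 5.32 and 5.32 (difference -0.58, SE 0.0947, adjusted p = 0.0276), and its LCN13 level lay below the median of all values. Glul, glutamine synthetase, which glucocorticoids also induce, measured 11.50, 11.41 and 11.42 against 10.83, 10.91 and 11.03 (difference -0.52, SE 0.0994, adjusted p = 0.0484). These 3 were the members past the threshold of 30 glucocorticoid targets, 23 of which were below 0, with a list median of -0.14, whereas 48.8% of all genes were below 0. Ddit4, an inhibitor of the growth kinase mTORC1, had the widest gap of the list, 8.11, 8.41 and 8.19 against 6.53, 6.37 and 6.88, with no overlap, yet an SE of 0.351 left it short of the threshold (difference -1.64, adjusted p = 0.0758). Gadd45g, a stress-induced growth arrest gene, measured 8.55, 8.85 and 8.86 against 6.92, 7.27 and 8.07 and did not pass either (difference -1.33, adjusted p = 0.082).

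**Figure D2:**
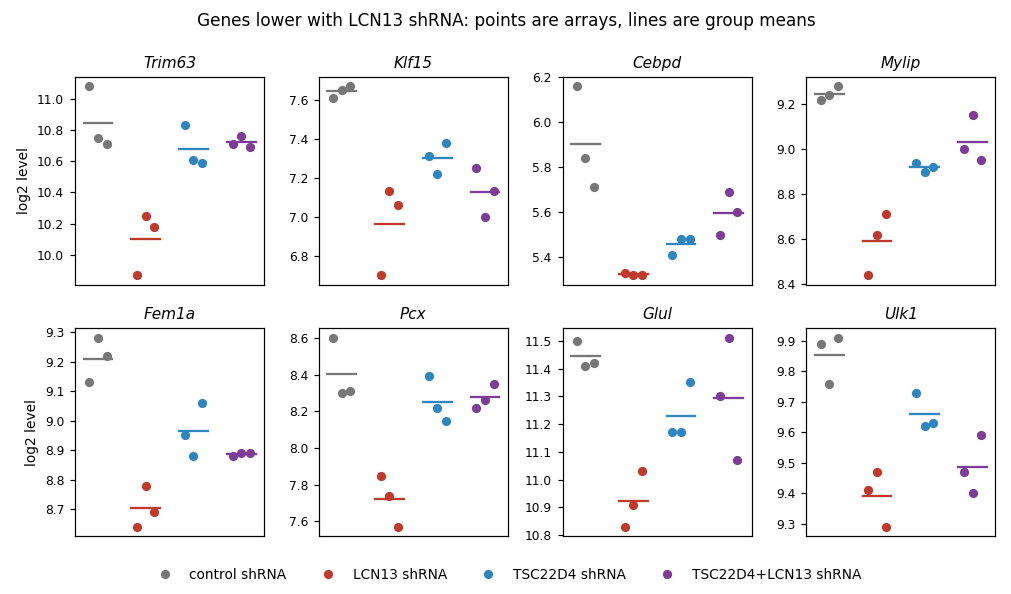
Log2 levels of 8 genes that were lower with LCN13 shRNA, by group, with a point for each array and a line at the mean of the 3 arrays; each panel has its own axis, which does not start at 0. In every panel the 3 LCN13 arrays (red) lie below the 3 control arrays (grey), while the TSC22D4 and TSC22D4+LCN13 arrays lie between them or overlap either.

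Beyond Trim63, the text groups genes by role after their values were seen, so the counts by role carry no test. How many of all genes tested have each role was not counted, so no role is shown to be more frequent among falls or rises. Of the 72 falls, 15 were of the ubiquitin system, between -0.75 and -0.19. The list of ubiquitin enzymes outside the proteasome had 2 of 39 members lower, Cul4a (-0.29, adjusted p = 0.0313) and Usp19 (-0.41, adjusted p = 0.0429), and a median of -0.045. Mylip, or IDOL, the ligase that sends the LDL receptor to degradation, measured 9.22, 9.24 and 9.28 in control and 8.44, 8.62 and 8.71 in LCN13 animals, a 1.57-fold fall (SE 0.0682, adjusted p = 0.0029). Fem1a, a substrate receptor of cullin-2 ligases, measured 9.13, 9.28 and 9.22 against 8.64, 8.78 and 8.69 (difference -0.51, SE 0.0532, adjusted p = 0.0029). For both genes all LCN13 arrays lay below all control arrays. Psmd1, the large scaffold subunit of the proteasome's regulatory particle, showed how small a change could pass: 11.22, 11.20 and 11.19 against 10.99, 11.05 and 11.01 (difference -0.19, SE 0.023, adjusted p = 0.00796). It was the 1 member past the threshold of 33 proteasome genes, whose median was -0.12. Psmc5 and Psmc1, ATPases of the same particle, gave differences of -0.43 and -0.39 that missed the threshold (adjusted p = 0.0786 for the former, 0.087 for the latter). Ubl3, a membrane-anchored ubiquitin-like protein, fell by 0.28 (SE 0.033, adjusted p = 0.00578). The remaining members were parts of cullin ligases (Rhobtb2, Asb10, Dcaf11 and Cul4a), of the anaphase-promoting complex (Anapc13), the conjugating enzyme Ube2l3, the ligase Ubr3, and the ubiquitin proteases Usp19, Usp24 and Usp4.

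Enzymes of pyruvate and amino acid metabolism held 5 falls. Pcx, pyruvate carboxylase, which makes oxaloacetate from pyruvate, measured 8.60, 8.30 and 8.31 in control and 7.85, 7.74 and 7.57 in LCN13 animals, a 1.61-fold fall (SE 0.0988, adjusted p = 0.0151). Gpt2, the mitochondrial alanine aminotransferase, measured 11.55, 11.33 and 11.41 against 10.94, 11.06 and 11.05 (difference -0.41, SE 0.0631, adjusted p = 0.0212), and Slc25a38, a mitochondrial glycine carrier, fell by 0.54 (SE 0.102, adjusted p = 0.0473). Aldh6a1, of valine breakdown, fell by 0.25 (SE 0.0479, adjusted p = 0.0473). It was the 1 member past the threshold of 25 genes of branched-chain amino acid catabolism, 21 of which were below 0, with a median of -0.15. Bckdha and Bckdhb, which form the core enzyme of the irreversible step of that pathway, measured -0.53 and -0.47 and did not pass (adjusted p = 0.103 and 0.0796). With TSC22D4+LCN13 minus TSC22D4 shRNA, arrays that are not part of the comparison with control, the same list had a median of -0.16 (all genes -0.004). Tendon cell markers had a median of 0.321 in those arrays.

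In glucose handling, Slc2a4, the insulin-responsive transporter GLUT4, measured 11.39, 11.50 and 11.43 in control and 11.15, 11.25 and 11.14 in LCN13 animals, a difference of -0.26 (SE 0.0453, adjusted p = 0.0358) without overlap. Pfkm, the muscle phosphofructokinase that gates glycolysis, measured 12.98, 12.91 and 12.93 against 12.59, 12.76 and 12.71 (difference -0.25, SE 0.0465, adjusted p = 0.0429). Each was the 1 call in its list, of 35 genes of insulin signalling and glucose uptake (median -0.03) and of 34 of glycolysis and glycogen (median -0.12). Hk2, hexokinase 2, which belongs to both, measured -0.35 and did not pass (adjusted p = 0.142). In the TSC22D4 group, given the same dose of control virus as the LCN13 group, Slc2a4 was at 11.42, 11.48 and 11.49, above all 3 LCN13 arrays, although that difference missed the threshold (-0.29, adjusted p = 0.0556).

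Ulk1, the kinase that starts autophagy, measured 9.89, 9.76 and 9.91 in control and 9.41, 9.47 and 9.29 in LCN13 animals (difference -0.46, SE 0.0648, adjusted p = 0.0136). Wipi2, which acts downstream of Ulk1 at the forming autophagosome, fell by 0.31 (SE 0.0477, adjusted p = 0.0218). Eef2k, the kinase that brakes translation elongation, fell by 0.36 (SE 0.0658, adjusted p = 0.0409). Becn1, of the lipid kinase complex of autophagy, measured 8.49, 8.53 and 8.60 against 7.44, 8.15 and 8.04 and did not pass (-0.66, adjusted p = 0.0996), with animal 21 lowest. Among 42 genes of autophagy and lysosome 1 fell, Ulk1, and 1 rose, Ppt1, with a median of -0.03. Further falls past the threshold were Ccdc85c, a coiled-coil protein of cell junctions (-0.77, adjusted p = 0.0116), Tollip, an adaptor of Toll-like receptor signalling (-0.51, adjusted p = 0.0112), Aebp1, a matrix-associated carboxypeptidase-like protein (-0.43, adjusted p = 0.0103), and the kinases Lmtk2 (-0.53, adjusted p = 0.0239) and Wnk2 (-0.49, adjusted p = 0.0358). Of the 72 falls, 62 were below 1.5-fold. The 72 falls were not free of genes linked to interferon: 6 that the lists do not hold were grouped as such after their values were seen, between -1.14 and -0.43. They were Siglec1, a lectin of macrophages (-0.92, adjusted p = 0.0233), Ifi213 (-0.51, adjusted p = 0.0134), Apol10b (-0.43, adjusted p = 0.0479), and the transcripts Gm20559, AW112010 and Gm4070 (-1.14, -0.97 and -0.93).

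As glucocorticoid-induced genes were among the falls, the promoters of the falls were searched for short motifs. RefSeq gives windows of 300 bases, 250 before to 50 after a gene's start, on GRCm38.p6, and 17452 of the 23185 genes had 21141 of them. The core of the glucocorticoid response element was searched as ACANNNTGT, the FoxO motif as GTAAACA, the E-box as CACGTG and the interferon-stimulated response element as GAAANNGAA, each on both strands. Below, capitals mark the motif named for each gene.

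Trim63 (chr4:134314870-134315169, plus strand, glucocorticoid core): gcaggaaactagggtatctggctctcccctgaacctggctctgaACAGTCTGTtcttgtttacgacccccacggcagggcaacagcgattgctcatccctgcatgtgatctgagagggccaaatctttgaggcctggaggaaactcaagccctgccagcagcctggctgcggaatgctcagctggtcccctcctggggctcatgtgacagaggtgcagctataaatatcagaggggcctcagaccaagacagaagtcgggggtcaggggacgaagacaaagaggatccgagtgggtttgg
Fem1a (chr17:56256543-56256842, plus strand, glucocorticoid core): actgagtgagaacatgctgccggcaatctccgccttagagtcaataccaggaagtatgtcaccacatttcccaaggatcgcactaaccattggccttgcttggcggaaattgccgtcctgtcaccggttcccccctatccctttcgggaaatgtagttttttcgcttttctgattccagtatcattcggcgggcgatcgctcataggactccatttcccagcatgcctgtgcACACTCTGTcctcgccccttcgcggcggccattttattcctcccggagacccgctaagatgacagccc
Glul (chr1:153899679-153899978, plus strand, glucocorticoid core): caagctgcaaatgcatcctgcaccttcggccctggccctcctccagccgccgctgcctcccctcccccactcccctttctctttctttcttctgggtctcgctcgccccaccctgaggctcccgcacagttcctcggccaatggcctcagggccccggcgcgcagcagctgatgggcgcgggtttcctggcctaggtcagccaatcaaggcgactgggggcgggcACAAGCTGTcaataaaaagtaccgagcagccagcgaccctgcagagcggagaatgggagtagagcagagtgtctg
Klf15 (chr6:90462326-90462625, plus strand, E-box): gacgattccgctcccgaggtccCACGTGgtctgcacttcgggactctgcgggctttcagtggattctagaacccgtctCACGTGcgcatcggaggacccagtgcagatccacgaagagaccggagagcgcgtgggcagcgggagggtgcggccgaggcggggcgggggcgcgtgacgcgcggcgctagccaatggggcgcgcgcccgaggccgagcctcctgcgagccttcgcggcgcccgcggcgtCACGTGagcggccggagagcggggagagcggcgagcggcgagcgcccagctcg
Nceh1 (chr3:27182754-27183053, plus strand, E-box): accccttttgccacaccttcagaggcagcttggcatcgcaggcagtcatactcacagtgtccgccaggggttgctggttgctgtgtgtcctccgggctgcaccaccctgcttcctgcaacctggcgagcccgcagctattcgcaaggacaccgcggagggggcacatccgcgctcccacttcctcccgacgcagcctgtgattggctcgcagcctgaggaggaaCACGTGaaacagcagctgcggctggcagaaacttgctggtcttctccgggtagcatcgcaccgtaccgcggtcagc
Ifit1 (chr19:34640639-34640938, plus strand, interferon-stimulated response element): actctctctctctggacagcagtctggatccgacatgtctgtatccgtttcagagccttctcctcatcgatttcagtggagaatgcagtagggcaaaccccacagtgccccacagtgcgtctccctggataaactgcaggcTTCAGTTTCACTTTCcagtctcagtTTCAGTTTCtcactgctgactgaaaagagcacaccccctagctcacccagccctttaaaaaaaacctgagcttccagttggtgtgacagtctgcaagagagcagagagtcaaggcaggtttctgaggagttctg

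The glucocorticoid core lay in the windows of Trim63, Fem1a and Glul among the falls. It was in 6 of 71 windows of falls outside the interferon lists (8.45%), in 5 of 37 windows of the glucocorticoid list (13.5%) and in 6.01% of all windows. The Trim63 window also held the FoxO motif, which was in 2 of 71 windows of falls (2.82%), 3 of 37 of the glucocorticoid list (8.11%) and 3.09% of all. The peroxisome proliferator response element, searched as AGGTCANAG, was in 0 of 71 windows of falls, 0 of 44 of rises and 1.78% of all. Klf15 held no glucocorticoid core but 3 E-boxes, a motif in 12.7% of windows of falls, 11.4% of windows of rises such as Nceh1, and 8.06% of all windows. The E-box was in 18.9% of windows of the glucocorticoid list, so a higher share there was not particular to the glucocorticoid core. The interferon-stimulated response element was in 26 of 61 windows of interferon genes that fell (42.6%), with 3 matches in Ifit1, whose first 2 overlap, in 10 of 71 windows of the other falls (14.1%), in 6.82% of those of rises and in 8.0% of all. Of those 10 windows 3 were of Gm20559, with starts 1 to 3 bases apart, and by gene the motif was in 8 of 57 of the other falls and in 9.21% of all genes with a window. Ifi213, Apol10b and Gm20559 were among the 8, and so was Glul, which was not grouped with interferon. The Glul window thus held this motif as well as the glucocorticoid core. A match of letters is a description and not a site of binding.

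Rises were of like size, and 45 of the 55 were below 1.5-fold. The lipid genes among them were Nceh1, Cd36 and Acot2. Nceh1, which frees cholesterol and fatty acid from neutral cholesterol esters, measured 9.30, 9.41 and 9.61 in control and 9.99, 10.06 and 10.22 in LCN13 animals, a 1.57-fold rise (SE 0.0903, adjusted p = 0.0129). Cd36, the fatty acid transporter of the muscle surface and of capillaries, measured 12.39, 12.39 and 12.48 against 12.72, 12.70 and 12.72 (difference 0.30, SE 0.043, adjusted p = 0.0151). Acot2, a mitochondrial acyl-CoA thioesterase and a target of PPAR alpha, measured 10.26, 9.80 and 10.27 against 10.67, 11.11 and 11.08 (difference 0.84, SE 0.151, adjusted p = 0.0386). None of the 3 overlapped, and the low control for Acot2 was animal 19. The list of fatty acid uptake and oxidation had 2 of 38 members higher, 29 above 0 and a median of 0.11. Ppargc1a, the PGC-1 alpha coactivator of oxidative metabolism, measured 10.26, 10.38 and 10.42 against 10.87, 10.93 and 11.04 and did not pass (0.59, adjusted p = 0.0932). Hepatocyte transcripts were high in LCN13 animals 22 and 23 but not in 21. Alb, albumin, was at 7.04, 10.12 and 9.32 in control and at 9.07, 11.57 and 10.94 in LCN13 animals. In the difference of group means 25 of 26 hepatocyte markers were above 0, none past the threshold. With the hepatocyte score as a covariate Cd36, Acot2 and Nceh1 measured 0.27, 0.69 and 0.59 (adjusted p = 0.0559, 0.105 and 0.0509). The part of hepatocyte RNA in these rises was not tested further.

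Proteins of the endoplasmic reticulum and of glycosylation held 10 rises, between 0.26 and 0.70. Gpx8, a peroxidase of the reticulum membrane, measured 8.80, 9.02 and 8.70 in control and 9.57, 9.44 and 9.59 in LCN13 animals (difference 0.70, SE 0.101, adjusted p = 0.0153). Dad1, a subunit of the enzyme that attaches N-glycans, measured 10.68, 11.07 and 10.72 against 11.64, 11.47 and 11.36 (difference 0.67, SE 0.121, adjusted p = 0.0402). Pigu, of the enzyme that adds lipid anchors to surface proteins, rose by 0.50 (SE 0.0812, adjusted p = 0.0279). Calu, a calcium-binding protein of the secretory pathway, was at 9.86, 9.84 and 9.80 against 10.21, 10.25 and 10.24 (difference 0.40, adjusted p = 0.0431). Reep3, which shapes the reticulum's membrane, measured 8.39, 8.36 and 8.37 against 8.73, 8.78 and 8.73 (difference 0.37, SE 0.0487, adjusted p = 0.0103). Genes of the unfolded protein and integrated stress response had 0 of 34 members past the threshold in limma and a median of 0.05.

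Membrane and cytoskeleton genes held 6 rises. Tmem47, a tetraspan protein of cell junctions, measured 9.48, 9.35 and 9.29 in control and 10.16, 9.95 and 9.89 in LCN13 animals, a 1.55-fold rise (SE 0.0806, adjusted p = 0.0103). Anxa5, a calcium-dependent phospholipid-binding protein, measured 10.34, 10.16 and 10.10 against 11.13, 10.90 and 10.88 (difference 0.77, SE 0.119, adjusted p = 0.0218). Pfn1, profilin, which feeds actin monomers to growing filaments, rose by 0.31 (SE 0.0406, adjusted p = 0.0105). Tppp3, a tubulin-binding protein also known from tendon sheath cells, rose by 0.66 (SE 0.105, adjusted p = 0.0251). Rmdn1, which associates with microtubules, measured 8.14, 7.90 and 7.95 against 8.66, 8.58 and 8.54 (difference 0.60, SE 0.078, adjusted p = 0.0103). Ppt1, a lysosomal enzyme that removes palmitate from proteins, was at 9.46, 9.48 and 9.43 against 9.84, 9.77 and 9.67 (difference 0.30, SE 0.0391, adjusted p = 0.0103). It was higher still in the other groups, at 9.90 to 9.94 with TSC22D4 shRNA and 9.94 to 9.99 with TSC22D4+LCN13 shRNA.

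**Figure D3:**
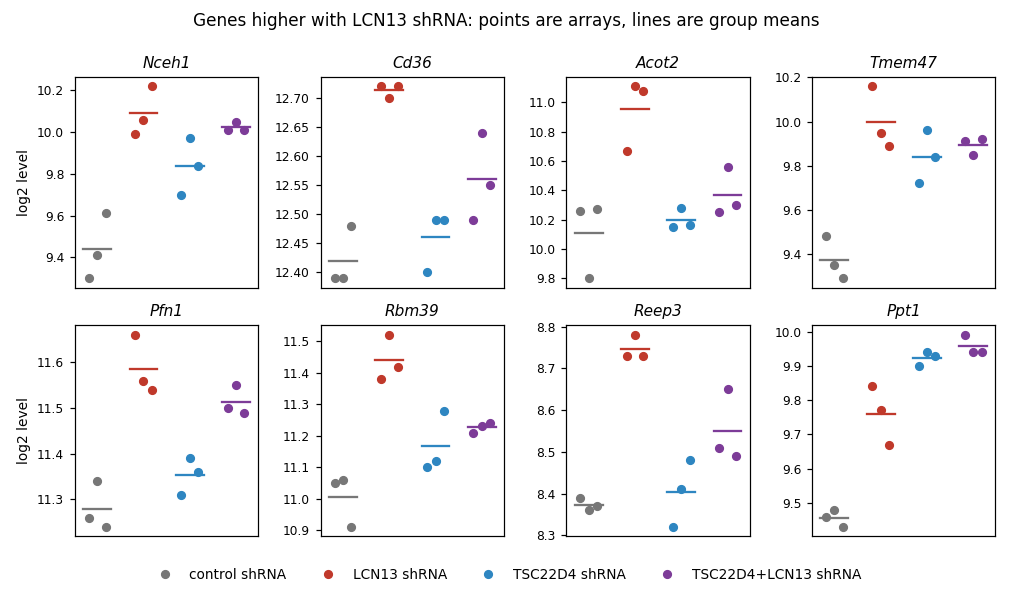
Log2 levels of 8 genes that were higher with LCN13 shRNA, by group, with a point for each array and a line at the mean of the 3 arrays; each panel has its own axis, which does not start at 0. All 3 LCN13 arrays (red) lie above all 3 control arrays (grey) in each panel, and Ppt1 is higher still in both groups given TSC22D4 virus.

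A few genes of RNA binding, and of vessels and the cell surface, were also among the rises. The grouping made after their values were seen put 5 in each of these roles. Rbm39, a splicing coactivator, measured 11.05, 11.06 and 10.91 in control and 11.38, 11.52 and 11.42 in LCN13 animals (difference 0.43, SE 0.0568, adjusted p = 0.0103). Srsf6 and Rbm5, regulators of splice site choice, rose by 0.31 and 0.30 (adjusted p = 0.0384 and 0.0402), and were the 2 calls among 40 genes of splicing (median 0.04). Kitl, stem cell factor, which endothelial and stromal cells make, measured 8.14, 8.57 and 8.25 against 8.97, 9.06 and 9.13 (difference 0.74, SE 0.135, adjusted p = 0.042). Cd300lg, a receptor of capillary endothelium, rose by 0.45 (SE 0.0843, adjusted p = 0.047), and Cd59a, an inhibitor of complement lysis, by 0.41 (SE 0.0745, adjusted p = 0.0397). The endothelial list had 0 of 20 members past the threshold and a median of 0.06, and its mean log2 level was 8.62 to 8.89 in control and 8.69 to 8.92 in LCN13 arrays. Bmpr1a, a receptor for bone morphogenetic proteins, measured 11.01, 10.93 and 10.94 against 11.23, 11.21 and 11.23 (difference 0.26, SE 0.0418, adjusted p = 0.0239), the 1 call of 36 genes of TGF-beta, BMP and myostatin signalling. In the TSC22D4 group Bmpr1a was at 10.83, 10.81 and 10.96, and LCN13 minus TSC22D4 shRNA gave 0.36 (adjusted p = 0.044).

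Connective tissue lists had the largest medians outside the interferon lists. Of 12 tendon cell markers all 12 were above 0, with a median of 0.67, and of 43 collagens and matrix genes 38 were, with a median of 0.38, yet 0 members of either list passed. Tnmd, a membrane protein of tendon cells, measured 8.08, 9.32 and 7.85 in control and 10.41, 9.71 and 10.10 in LCN13 animals, so that the groups did not overlap but the controls spread widely (difference 1.65, SE 0.411, adjusted p = 0.113). Postn, a matricellular protein of connective tissue, was at 7.63, 8.15 and 7.53 against 9.02, 9.21 and 9.21 (difference 1.38, SE 0.316, adjusted p = 0.0925). With the tendon score as a covariate all 127 genes kept their sign. That says little, as they were chosen in the same arrays for differences large against their SE. The median difference went from -0.345 to -0.286 over the 72 falls and from 0.374 to 0.326 over the 55 rises, while the median SE of the 127 rose from 0.0577 to 0.0753. Of the 127, 2 still passed, Fem1a (-0.57, adjusted p = 0.0485) and a predicted gene. Medians of some whole lists came nearer to 0: branched-chain amino acid catabolism went from -0.148 to -0.047, the proteasome from -0.122 to -0.021, glycolysis from -0.115 to -0.045 and the glucocorticoid targets from -0.144 to -0.111. Others moved away from 0, such as fatty acid uptake and oxidation (0.108 to 0.136) and lipogenesis and cholesterol synthesis (0.004 to -0.086). The tendon score therefore moved with the comparison, and its part in the 127 differences was not tested beyond this. With the hepatocyte score as a covariate 50 of the 127 passed.

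**Figure D4:**
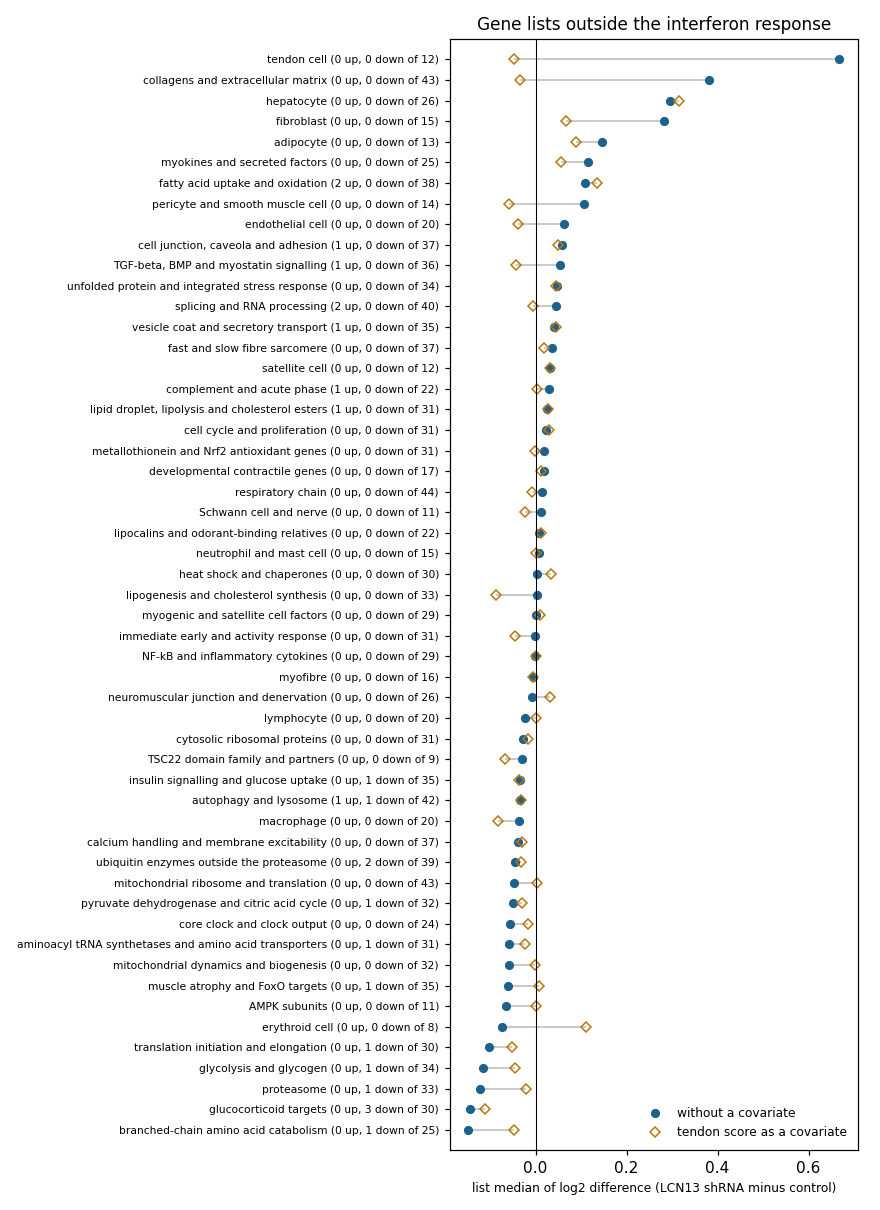
Median over each of 53 gene lists of the log2 difference LCN13 shRNA minus control, without a covariate (filled circles) and adjusted for the tendon score (open diamonds); labels give the members past the threshold in each direction and the number measured. The tendon cell and matrix lists are farthest to the right and come to -0.047 and -0.035 with the covariate, and most other lists lie within 0.15 of 0 in both. The score is itself made of 6 tendon genes, so the fit removes their mean difference by construction (median 0.828 to -0.001).

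The exchange of control virus for LCN13 virus was made on a further background, TSC22D4+LCN13 against TSC22D4 shRNA, which shares no array with LCN13 against control. There 0 of 23185 genes passed (0.0%), with a smallest adjusted p in limma of 0.0788, and 2434 genes had an unadjusted p below 0.05 (10.5%). Of the 72 falls 52 were lower there too (72.2%, against 52.9% of all genes), with a median of -0.067 against -0.345 in the comparison with control. Of the 55 rises 41 were higher there (74.5%), with a median of 0.081 against 0.374. Of the 70 interferon genes 34 were lower (48.6%), with a median of 0.0. Trim63, Klf15 and Cebpd measured 0.04, -0.18 and 0.14 there, and Nceh1, Tmem47 and Acot2 0.19, 0.05 and 0.17. By role, 12 of the 15 falls of the ubiquitin system and 9 of the 10 rises of the endoplasmic reticulum had the same sign. So did 3 of 5 falls of amino acid and pyruvate metabolism, 3 of 5 rises of RNA binding and 3 of 6 falls linked to interferon. For cytoskeleton and membrane it was 6 of 6. Whether any role differed in this from all 72 falls or all 55 rises was not tested. Connective tissue genes were higher there too, with a median of 0.321 for the tendon cell list and 0.193 for collagens and matrix. The comparisons thus shared this difference in tissue, and its part in the shared signs was not tested. The glucocorticoid list had a median of 0.14 there and of -0.14 against control. Its mean log2 level was 9.07 to 9.13 in control, 8.78 to 9.03 with LCN13 and 8.76 to 9.04 with TSC22D4 shRNA. With TSC22D4+LCN13 shRNA it was 8.89 to 9.19. The list was thus about as low with TSC22D4 virus alone, and its median for LCN13 minus TSC22D4 shRNA was 0.033.

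**Figure D5:**
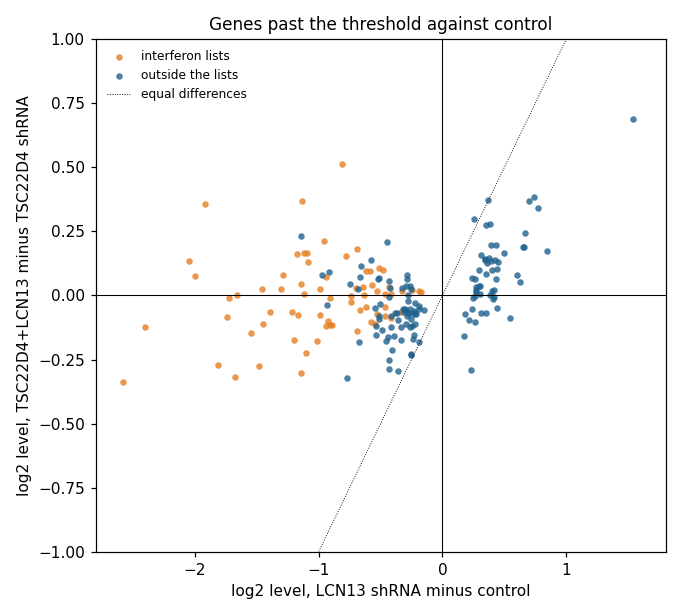
Log2 difference LCN13 shRNA minus control (horizontal) against TSC22D4+LCN13 minus TSC22D4 shRNA (vertical) for the 197 genes past the threshold in the former; the dotted line marks equal differences, and the axes have different scales. Genes of the interferon lists (orange) spread to -2.58 on the horizontal axis around 0 on the vertical, and the others (blue) lie nearer to 0 on both, with 93 of 127 on the same side of 0.

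Animals given TSC22D4 virus had the same dose of control virus as those given LCN13 virus. LCN13 against TSC22D4 shRNA gave 29 genes past the threshold (0.125%), 19 higher and 10 lower with LCN13 shRNA. Of the 29, 8 were also past the threshold against control, 2 of them unnamed clones. As this comparison shares the LCN13 arrays with LCN13 against control, the values are given side by side. Asb10, a substrate receptor of cullin-5 ligases, measured 6.87, 7.06 and 7.01 in control, 6.47, 6.58 and 6.60 with LCN13 and 7.13, 7.14 and 7.00 with TSC22D4 shRNA, which gives -0.43 (adjusted p = 0.0152) and -0.54 (adjusted p = 0.044). Aldh6a1 gave -0.25 and -0.32 (adjusted p = 0.0468 in the latter), and Anapc13 -0.28 and -0.35 (adjusted p = 0.0464 in the latter). Reep3 gave 0.37 and 0.34, and Slc35b1, which carries nucleotides across the reticulum membrane, 0.27 and 0.34 (adjusted p = 0.0464 in the latter for both). Wars, the tryptophanyl-tRNA synthetase, fell in the latter by 0.68 (adjusted p = 0.0464) and measured -0.40 against control (adjusted p = 0.107). Trim63 and Klf15 were -0.58 and -0.34 against TSC22D4 shRNA and did not pass (adjusted p = 0.0814 and 0.183). This count of 29 was 9 without LCN13 animal 21, 0 without LCN13 animal 23, and 0, 1 and 2 without TSC22D4 animals 25, 26 and 27.

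Whether the differences between groups with and without LCN13 virus depended on the background was tested as an interaction, TSC22D4+LCN13 minus TSC22D4 shRNA less LCN13 minus control. In limma 29 genes passed (0.125%), 21 of the interferon lists and 8 outside. Mylip was the 1 gene with a role given above: LCN13 shRNA minus control was -0.65 and TSC22D4+LCN13 minus TSC22D4 shRNA 0.11, an interaction of 0.77 (adjusted p = 0.0229). Its levels were 8.94, 8.90 and 8.92 with TSC22D4 and 9.00, 9.15 and 8.95 with TSC22D4+LCN13 shRNA, between the LCN13 and control arrays. The count of 29 was 8 and 50 without control animals 18 and 19, 14, 11 and 17 without LCN13 animals 21, 22 and 23, 5, 4 and 3 without TSC22D4 animals 25, 26 and 27, and 10 and 15 without TSC22D4+LCN13 animals 29 and 32.

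The counts depended on single arrays and on the estimate of spread, which all 12 arrays shared. Over all genes, 77 passed without control animal 20, 86 and 101 without LCN13 animals 21 and 23, and 127 and 120 without TSC22D4 animals 26 and 27. With the 6 compared arrays alone 18 genes passed in place of 197, and 7 outside the interferon lists in place of 127, 4 of them among the 127. Without control animal 20 the count outside the lists was 35, without LCN13 animal 21 it was 42, without LCN13 animal 23 it was 56 and without control animal 18 it was 79. Without TSC22D4 animals 25, 26 and 27, whose arrays add to the shared estimate of spread, it was 80, 74 and 66, and without TSC22D4+LCN13 animal 30 it was 207. When each of the 6 compared arrays was left out in turn, 19 of the 127 passed every time, 9 falls and 10 rises. The falls included Mylip, Fem1a, Ccdc85c, Tollip, Aebp1, Ubl3 and Psmd1, and the rises Nceh1, Tmem47, Rmdn1, Rbm39, Nt5c3b, Adss, Reep3, Ppt1 and Pfn1. Trim63, Klf15, Cebpd, Pcx and Ulk1 passed in 2, 3, 3, 5 and 4 of the 6, Cd36 in 3, Slc2a4 and Acot2 in 1 and Glul in 0. Acta1, Alb, Gpt2, Wipi2, Pfn1, Adss, Anapc13 and the ubiquitin genes named without values lie outside the naming rule and were chosen after their values were seen.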

How the data were processed

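The deposited log2 expression values of 25206 probe sets on 12 arrays were made by the authors with RMA, per the submitters' processing notes. RMA corrects background, makes the arrays' distributions equal and summarises probes, so a change shared by all genes would not be seen. The sources used here do not give its version, the genome build or how probes were grouped. Of the probe sets, 23185 had a gene symbol in the platform annotation, and 2021 (8.02%) had none and were not tested. Values ran from 4.78 to 14.09, and the lowest correlation between 2 arrays was 0.9902. Only 3 arrays per group limit the precision. No values were floored or filtered.

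All 12 arrays entered 1 linear model with 4 group means in limma 3.58.1 (R 4.3.3), with 8 residual and 1.69 prior degrees of freedom. Benjamini-Hochberg adjustment of p-values ran over all 23185 genes, at a threshold of 0.05, and a standard error (SE) is that of the difference of 2 means of 3 arrays. P-values measure the spread between these animals' arrays. Fits were tested on simulated data. Summaries and drawings used Python 3.11.15 and pandas 2.3.3. The fit without other arrays, filters, trend, array weights, both scores as covariates, a 1.2-fold null and left-out arrays are alternatives.

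The comparison, the 40 pathway and 13 cell type lists, both interferon lists and all tests were chosen with earlier results of these data known. Genes were named by rule: the targets, the 20 largest rises and falls and the 10 smallest adjusted p outside the interferon lists, 6 interferon falls, and up to 5 members past the threshold and 3 others per list, with up to 3 from each other comparison.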

Additional observations from a re-analysis of the deposited data

Results flagged for a closer look

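For 7 named genes the difference between groups with and without LCN13 virus, which also differ in control virus dose, was not the same on the control and the TSC22D4 background by limma's interaction test, over 3 arrays in each of 4 groups. Outside the interferon lists these were Mylip, the LDL receptor ligase (interaction 0.77, adjusted p = 0.0229), Med13, a subunit of the Mediator complex (-0.28, adjusted p = 0.0229), Kcnk15, a potassium channel (-0.33, adjusted p = 0.0245), and Tas1r1, a subunit of the umami receptor (-0.27, adjusted p = 0.0449). Mylip measured -0.65 against control and 0.11 on the TSC22D4 background, Med13 0.11 and -0.17, Kcnk15 0.17 and -0.16, and Tas1r1 0.10 and -0.17. In the interferon lists they were Herc6 (1.66, adjusted p = 0.000697), Znfx1, an RNA helicase-like sensor (0.82, adjusted p = 0.00973), and Parp14, an ADP-ribosyltransferase (1.33, adjusted p = 0.011), which measured -1.74, -0.92 and -1.30 against control and -0.08, -0.10 and 0.03 on the TSC22D4 background.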

How the results depend on the processing

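LCN13 shRNA against control, with 197 genes past the threshold and 127 outside the interferon lists, gave 18 and 7 with the compared arrays alone, 340 and 255 with array weights, 20 and 4 adjusted for the tendon score, and 27 and 1 against a 1.2-fold null. With genes above the median level alone 198 passed outside the lists. Leaving out single arrays gave 77 to 280 and 35 to 207. TSC22D4+LCN13 against TSC22D4 shRNA, with 0, gave 3 with the hepatocyte score as a covariate and 0 to 1 with single arrays left out, the 1 without TSC22D4+LCN13 animal 30. LCN13 against TSC22D4 shRNA, with 29, gave 84 with the compared arrays alone, 70 above the median level, 18 with trend and robust fitting, 235 with array weights, 2 and 9 with the tendon and hepatocyte scores, 0 against a 1.2-fold null, and 0 to 28 with single arrays left out. The interaction, with 29, gave 50 above the median level, 2 with the tendon score, 4 against a 1.2-fold null and 3 to 50 with single arrays left out. The causes were not tested. Over 218 named genes and their alternatives 0 of 3255 results were labelled reversed, 349 lost the threshold and 78 gained it. A small change of sign counted as the same, such as Obp2a from -0.01 to 0.01 without control animal 19. Many of these genes were named for their size or p in the main fit, so the 0 says little. Leaving out arrays of both TSC22D4 groups in the comparison with control, and all alternatives for its count outside the lists, were chosen after seeing the data. No paired analysis was possible because the animal numbers differ between the groups.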

Other observations

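Snora17, Scarna13 and Snora73a are small RNAs of the nucleolus and Cajal bodies, a class that guides the modification of ribosomal and spliceosomal RNA. These 3 were chosen after their values were seen, and the class as a whole was not tallied. Snora17 measured 12.00, 11.16 and 11.41 with LCN13 and 9.39, 9.42 and 9.83 with TSC22D4 shRNA, a log2 difference of 1.98 (limma adjusted p = 0.0464), with control at 10.36, 10.72 and 11.19 and TSC22D4+LCN13 at 9.76, 10.25 and 10.12. Scarna13 measured 11.22, 10.71 and 11.16 against 8.73, 9.52 and 9.02 (1.94, adjusted p = 0.0464), and Snora73a 6.91, 6.30 and 6.88 against 5.48, 5.58 and 5.53 (1.17, adjusted p = 0.0464). The 3 were among the 29 calls of LCN13 against TSC22D4 shRNA, a count that was 0 to 28 with single arrays left out. AF357425 was at 8.93, 8.04 and 8.11 with LCN13 shRNA and 6.51, 7.21 and 6.74 in control (1.54, adjusted p = 0.0347).

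None of 22 measured lipocalins and odorant-binding relatives passed against control in limma, and their median was 0.008. Lcn2, an iron-siderophore carrier of inflammation, measured 0.62 (adjusted p = 0.304), and Apod, apolipoprotein D, -0.41 (adjusted p = 0.31).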
